A study of Mus musculus with 24 samples.

Results

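Expanded mouse blastocysts of 2 coded conditions, HC4 and HC6, were compared on one-colour microarrays. The samples are all those whose title carries either code, 8 of the 24 pools of the series, with 4 pools of HC4 and 4 of HC6. An HC4 pool held 15 frozen embryos and an HC6 pool held 20, so condition and pool size cannot be told apart in any value below. By its title the series is about bisphenol A, the building block of polycarbonate plastic, and estrogen receptors at the membrane. The labels give each condition as a code only: the treatment, strain and culture behind HC4 and HC6, and which code is a control, are not stated in them. Whether the 4 pools of a condition derive from different animals is not stated either. The p-values and intervals of genes measure only the spread between pools within conditions, taken over all 24 pools of the series. That spread may be technical. In pooled embryos, fewer cells of a type and less RNA per cell cannot be told apart.

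The blastocyst is the embryo at the stage of implantation. Its outer epithelium, the trophectoderm, pumps fluid into the cavity and founds the placenta, and the inner cell mass divides into the epiblast, which forms the embryo proper, and the primitive endoderm, which lines the yolk sac. Estrogens act in cells through nuclear receptors, which bind DNA at estrogen response elements, and through receptors at the cell membrane, which signal within minutes through G proteins, SRC, PI3 kinase and ERK. Bisphenol A binds receptors of both kinds with low affinity.

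Markers of the blastocyst lineages were measured in these pools, and so were some markers of other cell types. Of 8 trophectoderm and 8 primitive endoderm markers, all were well above background on all 8 arrays, and 7 of 8 epiblast markers were. Of 7 cumulus and granulosa markers, 2 were well above background on all 8 arrays and 4 (Fshr, Cyp19a1, Ptx3 and Tnfaip6) on none. The summed linear level of all 7, relative to the array's 75th percentile, was 17.3 to 35.6 in HC4 and 17.1 to 41.1 in HC6. That of the 8 epiblast markers was 28.2 to 33.9 and 28.6 to 34.6. Of 4 oocyte markers, 0 were well above background on all 8 arrays and 1 (Bmp15) on none. Of 6 stromal, blood and immune markers, 1 was so on all 8 arrays and 1 (Dcn) on none of the 8 arrays. Of 4 uterus and oviduct markers, 3 (Ltf, Foxj1 and Pax8) were not well above background on any of them. The share of spots well above background ran from 45.8% to 48.1% in HC4 pools and from 38.6% to 49.7% in HC6 pools (exact permutation test, two-sided, p = 0.257, where 0.0286 is the smallest p that 4 against 4 pools can give). Levels below are log2 intensities relative to the array's 75th percentile, so 0 is the 75th percentile and each step of 1 is a doubling.

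No gene passed the test between the conditions. Of 18397 genes tested with limma, 0 (0%) had an adjusted p under 0.05, with Benjamini-Hochberg adjustment over all genes, and the smallest adjusted p was 0.105, for Fam131a. An unadjusted p under 0.05 was found for 366 genes (1.99%), fewer than the 920 that this threshold would give with no difference in any gene. Of the 366, 168 (0.913%) were higher in HC6 and 198 (1.08%) higher in HC4. All 15 pairs of conditions in the series gave fewer than 920, from 277 to 907, so the shortfall is not particular to HC4 and HC6. The levels of the 4 HC6 pools did not overlap those of the 4 HC4 pools for 277 genes (1.51%), of which 103 (0.56%) were higher in HC6 and 174 (0.946%) higher in HC4. The median difference, HC6 minus HC4, was -0.0287 on the log2 scale, and 42% of genes were higher in HC6. With the percentile taken over probes detected on all arrays, 52.7% were higher in HC6, and 10.7% of genes changed the sign of their difference.

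The conditions lay about as far apart as the pools within them. Over the 13792 genes well above background on all 8 arrays, the root mean square log2 distance between 2 pools had a median of 0.343 within HC4, 0.404 within HC6 and 0.376 between HC4 and HC6. HC6 replicate 1 and HC4 replicate 4 stood furthest from the other pools of their own condition, with median distances of 0.499 and 0.44. The other 3 HC4 pools lay between 0.284 and 0.303 from theirs. Of the HC6 pools, 3 were nearer to the HC4 pools than to the other HC6 pools: replicate 1 at 0.424 against 0.499, replicate 2 at 0.312 against 0.381 and replicate 4 at 0.306 against 0.373. HC6 replicate 3 and all 4 HC4 pools were nearer to their own condition.

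The precision reached set a limit on what could have been missed. Over the same 13792 genes the median standard error of the difference was 0.16, and for 95.1% of them the 95% interval held no change as large as 2-fold. Over all genes tested that share was 79.8%. Arrays were also simulated from the means and spreads of 18142 tested genes, dim ones included, with 200 genes changed. In these, 54% of genes changed 2-fold in this comparison and 86% of those changed 4-fold were called. Noise was drawn separately for each gene, so shifts shared between genes, as between slide rows, were left out. The shares describe the simulated setting only.

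**Figure D1:**
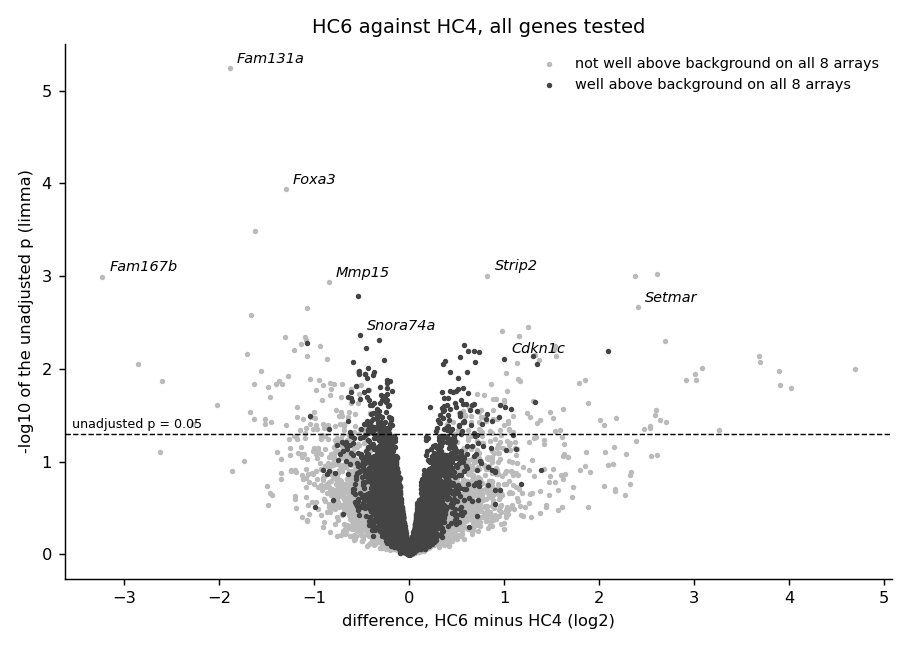
Each point is 1 of the 18397 genes tested, with the difference HC6 minus HC4 (log2) on the horizontal axis and -log10 of the unadjusted limma p on the vertical axis. Genes not well above background on all 8 arrays (grey) reach the largest differences. Fam131a has the smallest p, 5.73e-06, and no gene reaches an adjusted p of 0.05.

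Fam131a, of which no role is given here, had the smallest p of all genes. Its level was -2.61, -2.26, -1.96 and -2.45 in HC4 replicates 1 to 4 and -3.79, -5.03, -4.45 and -3.56 in HC6 replicates 1 to 4. Every HC4 pool was above every HC6 pool, and the probe was well above background in all 4 HC4 pools and in 1 of the 4 HC6 pools. The dimmest well-measured signal was -2.25, -2.84, -3.02 and -3.75 on HC6 replicates 1 to 4. HC4 levels such as -2.61 and -2.45 would thus not have counted as measured on HC6 replicate 1. The HC6 mean and the difference below rest in part on unmeasured levels. The means were -2.32 ± 0.28 (SD, n = 4) and -4.21 ± 0.66 (SD, n = 4), a measured difference of -1.89 with a 95% interval from -2.53 to -1.24 (limma, adjusted p = 0.105). The 16 pools of the other conditions ran from -3.80 to -2.28 with a median of -3.03, so the HC4 pools lay towards their top and 2 HC6 pools fell below all of them. Its probe lies at chr16:20703004-20703063 on the plus strand of mm9, the build of the array annotation.

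Foxa3, a forkhead factor of liver and gut endoderm that can open chromatin, showed a similar arrangement. Its level was -2.25, -2.52, -2.48 and -2.35 in the 4 HC4 pools and -4.09, -3.40, -4.19 and -3.10 in the 4 HC6 pools. The HC4 pools sat close together and above every HC6 pool. The measured difference was -1.30 with a 95% interval from -1.86 to -0.73 (limma, adjusted p = 1.00). The probe was well above background in all 4 HC4 pools and in 1 HC6 pool, so this difference too rests in part on unmeasured levels. The other 16 pools ran from -3.35 to -2.16, with 8 of them well above background.

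The promoters of the 2 genes of smallest p in each direction among those named here are shown because estrogen receptors act on DNA at known letters, and these genes head the comparison. Each line is the 250 bases before the RefSeq start on the gene's strand, from GRCm38.p6, and capitals mark matches, on either strand, to the full estrogen response element (GGTCA, 3 bases of any kind, then TGACC), its core hexamer AGGTCA, the GC box GGGCGG and the TATA box TATAAA. A full element with an A before it also counts as a match to the hexamer. Fam131a and Foxa3 were higher in HC4, and Strip2 and Setmar higher in HC6.
Fam131a promoter: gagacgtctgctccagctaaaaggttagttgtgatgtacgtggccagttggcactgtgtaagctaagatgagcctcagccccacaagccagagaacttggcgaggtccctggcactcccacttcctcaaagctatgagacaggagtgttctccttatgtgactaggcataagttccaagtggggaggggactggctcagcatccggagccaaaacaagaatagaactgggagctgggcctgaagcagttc
Foxa3 promoter: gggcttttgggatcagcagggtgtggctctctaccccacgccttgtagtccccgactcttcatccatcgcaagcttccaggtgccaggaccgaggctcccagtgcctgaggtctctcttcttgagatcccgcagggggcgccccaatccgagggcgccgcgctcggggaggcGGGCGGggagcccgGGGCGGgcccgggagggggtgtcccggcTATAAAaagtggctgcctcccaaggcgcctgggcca
Strip2 promoter: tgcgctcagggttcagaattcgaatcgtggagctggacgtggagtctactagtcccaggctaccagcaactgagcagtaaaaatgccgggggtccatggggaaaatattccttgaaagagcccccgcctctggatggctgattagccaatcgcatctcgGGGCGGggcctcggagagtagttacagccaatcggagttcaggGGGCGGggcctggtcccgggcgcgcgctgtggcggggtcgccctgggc
Setmar promoter: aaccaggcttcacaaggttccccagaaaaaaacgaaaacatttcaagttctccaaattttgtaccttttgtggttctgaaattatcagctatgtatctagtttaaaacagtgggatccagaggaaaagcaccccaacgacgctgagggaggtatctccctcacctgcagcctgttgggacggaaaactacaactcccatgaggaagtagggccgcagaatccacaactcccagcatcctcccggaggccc
The windows lie at chr16:20694807-20695056 on the plus strand for Fam131a, chr7:19023540-19023789 on the minus strand for Foxa3, chr6:29916763-29917012 on the plus strand for Strip2 and chr6:108064795-108065044 on the plus strand for Setmar. Foxa3 held 2 GC boxes and 1 TATA box, Strip2 held 2 GC boxes, and the windows of Fam131a and Setmar held none of the 4 motifs. Over all 32851 promoters of the table, 32.7% held a GC box, 12.4% a TATA box, 14% the core hexamer and 0.0639% the full estrogen element. Of the 42 genes named below as leading, 21 were higher in HC4 and 21 higher in HC6. Among the 17 promoters found for the first 21 genes and the 21 found for the others, 1 in each set (Cog1 and Nod1) held the core hexamer and none held the full element. A match is a description of the letters in these windows only.

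Most of the large differences were in genes not measured on every array: of 261 genes with a difference over 1 in either direction, 247 (94.6%) were not well above background on all 8 arrays, against 25% of all genes tested. Of the genes tested, 543 were well above background in at least 3 HC4 pools and in at most 1 HC6 pool, and 23 showed the opposite. Of the 543, only 15, 17 and 41 were well above background in HC6 replicates 1, 2 and 3, while 389 were in HC6 replicate 4. The share of tested genes well above background was 77.8%, 84.7%, 87.7% and 94.5% in HC6 replicates 1 to 4, and between 90.1% and 92.8% in the HC4 pools. The part of this spread in detection in the 543 genes was not tested.

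Among genes measured in HC4 and mostly dim in HC6, Fam131a and Foxa3 were followed by Fam167b, Mmp15, Gng11 and Recql5. Fam167b had levels of -0.10, -0.07, -1.69 and -5.35 in HC4 and of -4.32, -4.90, -5.08 and -5.83 in HC6. HC4 replicates 1 and 2 were high, HC4 replicate 3 intermediate, and HC4 replicate 4 was as low as the HC6 pools, so the groups overlapped. No HC6 pool was well above background for it, and 3 HC4 pools were. The HC4 mean was 2.24-fold above HC6 with each HC6 array at its floor, the higher of its dimmest well-measured signal and the probe's own. This bound concerns the means of these pools only. It takes the remaining HC4 pool at its measured level and leaves out the spread between pools. The measured difference was -3.23 (limma, adjusted p = 1.00). Without HC4 replicate 4, the HC4 pool with the low level, it was -4.41 (limma, adjusted p = 0.00545). Of the other 16 pools, 1 was well above background. The probe thus met the filter of 4 arrays only with the 3 HC4 pools, so the filter itself favoured a higher HC4 level. The bound and the p-values of Fam167b are therefore no evidence of a difference.

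Mmp15, a matrix metalloproteinase anchored in the cell membrane, had levels of -2.37, -1.93, -2.11 and -1.83 in HC4 and of -2.74, -3.39, -2.69 and -2.79 in HC6. Every HC4 pool was above every HC6 pool, with HC6 replicate 2 the lowest. The measured difference was -0.85 with a 95% interval from -1.31 to -0.38 (limma, adjusted p = 1.00). Gng11, a gamma subunit of G proteins, was not well above background in any HC6 pool. Its HC4 mean was 1.24-fold above HC6 at the floor, with a measured difference of -1.07. HC6 replicate 1, at -3.10, was level with HC4 replicates 1 and 3. Gng11 also differed between the rows of the slide (adjusted p = 0.0355), as described below. Recql5, a DNA helicase of the RecQ family, had a measured difference of -1.08 with overlapping pools.

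Among genes measured in HC6 and mostly dim in HC4, Setmar had the smallest p. Setmar, a histone methyltransferase of the SET family, had levels of -3.43, -3.65, -4.46 and -3.66 in HC4 and of -3.33, -0.54, -2.52 and 0.81 in HC6. Its HC6 pools spread widely, replicate 1 lying just above the HC4 pools and replicate 4 far above them. No HC4 pool was well above background, and 3 HC6 pools were. The HC6 mean was 3.93-fold above HC4 at the floor, a bound on the means of these pools that leaves out their spread. The measured difference was 2.41 with a 95% interval from 0.98 to 3.83 (limma, adjusted p = 1.00). The other 16 pools ran from -4.64 to -2.05.

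Scube3, a secreted protein with EGF-like repeats, had levels of -4.75, -3.79, -2.85 and -4.05 in HC4 and of -1.85, -2.73, -2.04 and -2.66 in HC6. All 4 HC6 pools were well above background and above every HC4 pool, HC4 replicate 3 coming closest. The measured difference was 1.54 with a 95% interval from 0.47 to 2.62 (limma, adjusted p = 1.00). Zfp629, a zinc finger protein, had levels of -3.28, -4.45, -3.39 and -3.60 in HC4 and of -1.92, -2.56, -2.52 and -2.27 in HC6, again without overlap, and a measured difference of 1.36. The remaining 3 genes of this kind had overlapping pools: Gpihbp1, which carries lipoprotein lipase to the capillary lumen, Ctrcos, a transcript opposite Ctrc, and Fads1, a fatty acid desaturase. Their measured differences were 0.88, 0.76 and 0.78, and without HC6 replicate 1 those of Gpihbp1 and Ctrcos were 0.51 and 0.29.

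**Figure D2:**
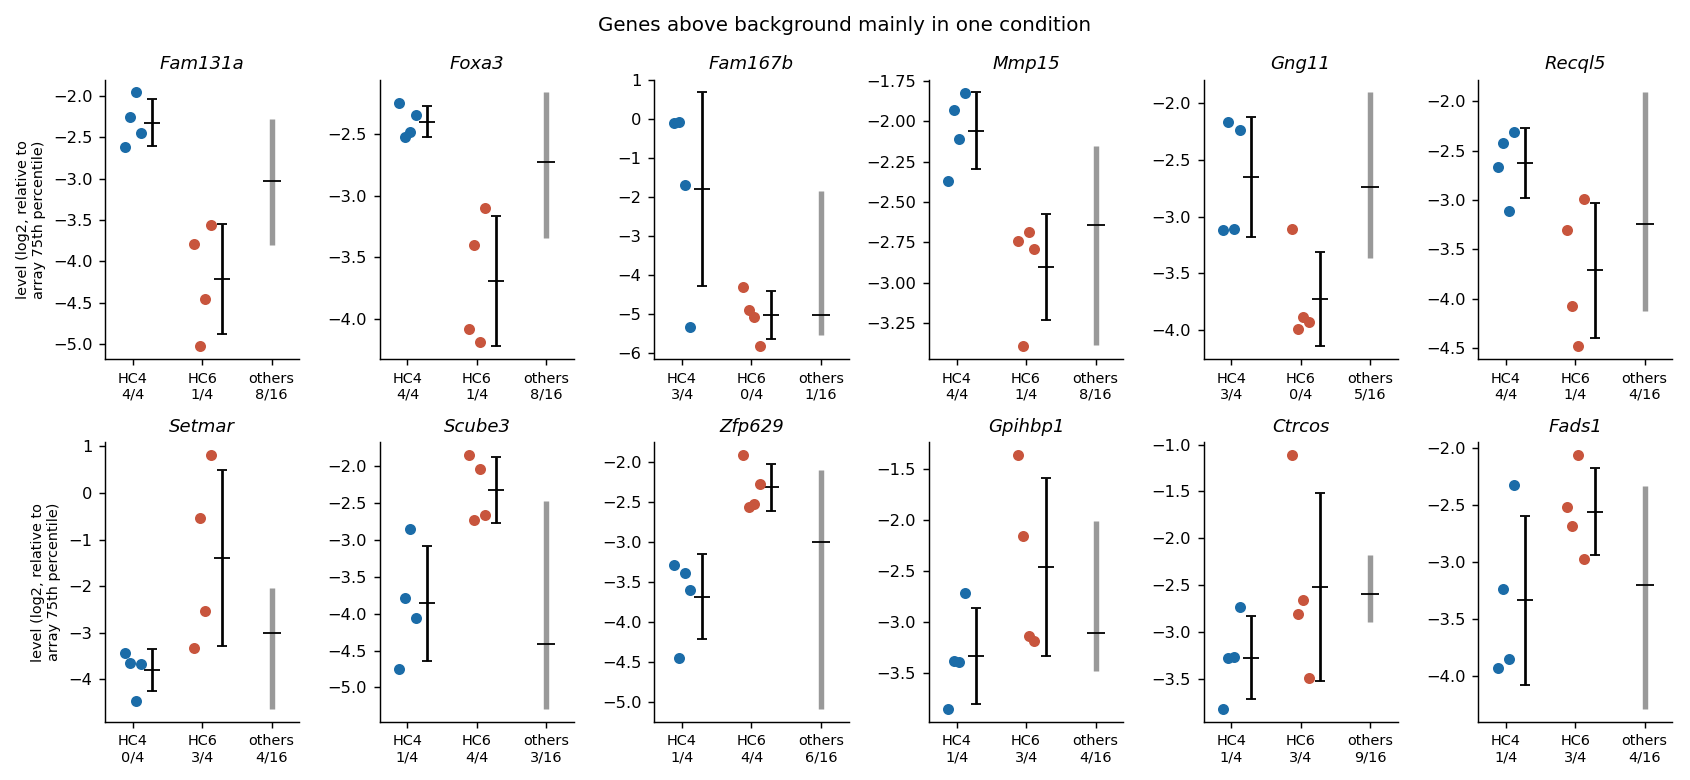
Levels (log2, relative to the array's 75th percentile) of the 12 genes above background mainly in HC4 (top) or mainly in HC6 (bottom). Points are single pools, black bars the mean with 1 SD, grey bars the range of the other 16 pools with their median, and the fractions count arrays well above background. Fam167b and Setmar spread most within a condition, Fam167b in HC4 and Setmar in HC6.

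Among genes measured in both conditions, in the 15 of smallest p that were higher in HC4, the difference ran from -0.87 in Ankrd52, a regulatory subunit of a serine/threonine protein phosphatase, to -0.20 in Rsf1, the histone-binding subunit of a chromatin remodelling complex. Without HC6 replicate 3 the difference of Ankrd52 was -0.55. Among the 15 was a pair of small nucleolar RNAs of the H/ACA class, many but not all members of which guide pseudouridylation of other RNAs. Of the pair, Snora74a had levels of -1.04, -1.01, -0.53 and -0.69 in HC4 and of -1.19, -1.54, -1.32 and -1.29 in HC6. Every HC4 pool was above every HC6 pool, by little in 2 of them. The difference was -0.52 with a 95% interval from -0.86 to -0.18 (limma, adjusted p = 1.00). Snora73a had levels of 4.87, 5.05, 4.91 and 5.0 in HC4 and of 4.81, 4.08, 4.43 and 4.14 in HC6, with a difference of -0.60. Only HC6 replicate 1 came near the HC4 pools. Such RNAs are cut from introns of host transcripts and have near-identical copies, and which transcript the probes read was not tested.

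Prmt5, which places symmetric methyl marks on arginines, had levels of 2.62, 2.69, 2.74 and 2.70 in HC4 and of 2.51, 2.58, 2.49 and 2.23 in HC6. The HC4 pools lay close together and just above all HC6 pools, and the difference was -0.23 with a 95% interval from -0.41 to -0.05 (limma, adjusted p = 1.00). Nfatc2, a transcription factor switched on by calcium and calcineurin, had levels of -1.83, -1.57, -1.83 and -1.69 in HC4 and of -2.47, -2.18, -2.45 and -1.98 in HC6. Its groups did not overlap, and the difference was -0.54. The differences were -0.32 in Impa2, an inositol monophosphatase, -0.26 in Wdr48, a partner of deubiquitinating enzymes, and -0.38 in Hectd4, a HECT-domain protein. Pgpep1, a peptidase that removes pyroglutamate, and Rab34, a small GTPase of ciliogenesis, both had a difference of -0.53 without overlap. Adam23, a disintegrin without protease activity, had one of -0.55, and Cog1, a subunit of a Golgi tethering complex, one of -0.23. Glipr1 and Ccdc86, at -0.56 and -0.24, completed the 15. Dimmer probes well above background on all 24 arrays gave -0.08 for Cog1, -0.06 for Wdr48 and -0.23 for Hectd4. For Rsf1 such probes gave -0.09 and 0.08. A dimmer Prmt5 probe, so on 23 arrays, gave -0.07, and an Ankrd52 probe, so on 12 arrays, gave -0.47.

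In the 15 genes of smallest p that were higher in HC6 and measured in both conditions, the difference ran from 0.34 in Pex3, a peroxisome assembly factor, to 1.30 in Poglut3, which adds glucose to EGF repeats. Strip2, a subunit of the STRIPAK phosphatase and kinase complex, had levels of -3.28, -3.44, -3.06 and -2.75 in HC4 and of -2.48, -2.35, -2.04 and -2.37 in HC6. The groups did not overlap, and 3 pools of each were well above background. The difference was 0.82 with a 95% interval from 0.38 to 1.27 (limma, adjusted p = 1.00). Cdkn1c, an imprinted inhibitor of cyclin-dependent kinases that acts in trophoblast giant cells, had levels of 0.41, 0.39, -0.11 and -0.48 in HC4 and of 0.62, 0.47, 0.94 and 2.20 in HC6. HC6 replicate 4 was far above the other pools, and HC6 replicate 2 barely above the highest HC4 pool. Its difference was 1.00 with a 95% interval from 0.30 to 1.71 (limma, adjusted p = 1.00), and 0.62 without HC6 replicate 4. The other 16 pools ran from -0.37 to 1.04.

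Nod1, a cytosolic sensor of bacterial peptidoglycan, had levels of -2.72, -1.07, -2.36 and -2.88 in HC4 and of -1.05, -1.46, -1.36 and -1.25 in HC6. HC4 replicate 2 lay among the HC6 pools and the other 3 HC4 pools below them. The difference was 0.98. Smc1b, a meiotic cohesin subunit, had levels of -2.16, -2.03, -1.95 and -1.68 in HC4 and of -2.01, -0.46, 0.53 and -1.23 in HC6, with a difference of 1.16. HC6 replicate 3 was the highest for Smc1b and also for Poglut3 and Rftn1, a lipid raft protein, whose differences without that pool were 0.72, 0.65 and 0.73. The differences were 0.62 in Rtn4rl2, a Nogo receptor relative, 0.73 in Pnpla7, a lysophospholipase, and 0.69 in Ankrd12, which binds coactivators of nuclear receptors. They were 0.46 in Kansl1, a scaffold of a histone acetyltransferase complex, 0.43 in Cilp, a cartilage matrix protein, and 0.60 in Cd300a, an inhibitory receptor of immune cells. For Kansl1, a dimmer probe well above background on all 24 arrays gave -0.22, and one so on 23 arrays gave 0.47. Without HC6 replicate 1, Cd300a differed by 0.30 and Pex3 by 0.17. The transporters Slc26a11 and Slc46a3 had differences of 0.35 and 0.56. A dimmer Slc26a11 probe well above background on all 24 arrays gave 0.28, while a dimmer Pex3 probe, so on 11 arrays, gave -0.36.

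**Figure D3:**
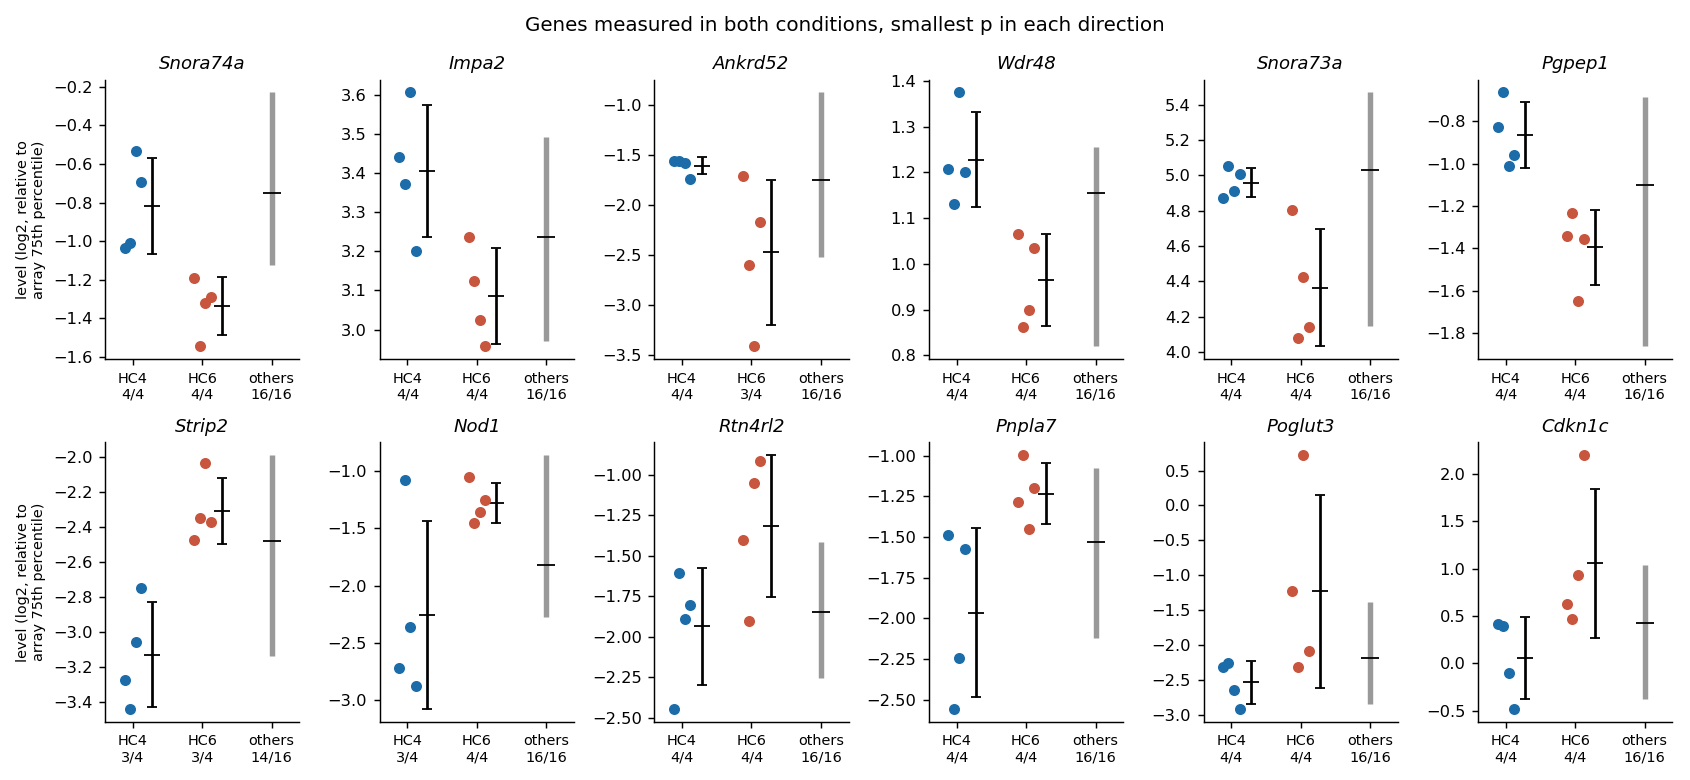
Levels (log2, relative to the array's 75th percentile) of the 6 genes of smallest p higher in HC4 (top) and higher in HC6 (bottom) among genes measured in both conditions. Points are single pools, black bars the mean with 1 SD, and grey bars the range of the other 16 pools with their median. For Cdkn1c, HC6 replicate 4 at 2.20 lies above all other pools.

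By the brightest probe of each gene, the regulators of the first lineages had nearly the same level in both conditions. Nanog, a factor of the naive epiblast, had levels of 0.91, 1.22, 0.62 and 0.37 in HC4 and of 0.53, 1.24, 0.67 and 0.67 in HC6, and Pou5f1, the pluripotency factor OCT4, differed by -0.01 with a 95% interval from -0.39 to 0.38. The interval for Nanog ran from -0.48 to 0.47, while a dimmer Nanog probe well above background on all 24 arrays gave a difference of 0.38. Sox2, their partner, differed by 0.01. Of the trophectoderm factors, Cdx2 had levels of 4.70, 4.87, 5.04 and 5.03 in HC4 and of 4.61, 5.20, 4.51 and 4.89 in HC6, a difference of -0.11 with a 95% interval from -0.53 to 0.31. Gata3 differed by 0.05 and Eomes by -0.15, and in all 3 the pools overlapped. Gata3 also differed between the rows of the slide (limma, adjusted p = 0.0214), as described below. Its difference was 0.12 with row as a covariate, and -0.24, -0.25 and 0.55 within slides 1, 2 and 3. A dimmer Eomes probe well above background on all 24 arrays gave -0.20. Of the epiblast list, 7 of 20 genes were higher and 13 lower in HC6, with a median of -0.0144 against -0.0287 for all genes, and Klf4 alone (-0.25) had an unadjusted p under 0.05. Of the trophectoderm list, 4 of 19 genes tested were higher and 15 lower, with a median of -0.0591.

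Primitive endoderm genes were lower in HC6 in 17 of 20 cases, with a median of -0.224 against -0.0287 for all genes, and 0 of 20 had an unadjusted p under 0.05. Gata6, which starts this lineage, differed by -0.02 with a 95% interval from -0.27 to 0.23. Amn and Cubn, the pair that forms the endocytic receptor of the visceral endoderm, had the smallest p of the list. Amn had levels of 1.81, 0.93, 1.59 and 2.39 in HC4 and of 1.82, 0.59, 0.92 and 0.73 in HC6. Cubn had levels of 3.49, 2.74, 3.01 and 3.97 in HC4 and of 3.25, 2.47, 3.0 and 2.26 in HC6. HC4 replicate 4 was the highest for both and HC6 replicate 1 lay among the HC4 pools, and the differences were -0.66 and -0.56 (limma, adjusted p = 1.00 for each). Gata4 (-0.35) and Sox17 (-0.24), transcription factors of the same lineage, also had overlapping pools, as did Pdgfra (-0.12), its growth factor receptor. The score of the list, the mean deviation of its genes from their mean over the 8 pools, was 0.28, -0.03, -0.00 and 0.16 in HC4 and 0.14, -0.13, -0.19 and -0.25 in HC6. HC6 replicate 1 lay within the HC4 range and the other HC6 pools below it.

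The estrogen receptor measured here differed by less than the spread between pools. Esr2, the receptor ERβ, had levels of 2.11, 1.94, 1.98 and 2.17 in HC4 and of 2.08, 1.98, 2.02 and 2.25 in HC6. The pools interleaved, and the difference was 0.03 with a 95% interval from -0.19 to 0.26. The 7 probes of Esr1, the receptor ERα, and the probe of Gper1, the G protein-coupled estrogen receptor, were not well above background on any of the 8 arrays, so a difference in them was not detectable. Of 17 receptors, relatives and coregulators tested, 6 were higher and 11 lower in HC6, with a median of -0.0467, and the smallest p belonged to the corepressor Nrip1 (-0.33) and the orphan receptor Esrra (-0.25). Of 20 tested genes of membrane estrogen signalling, 9 were higher and 11 lower, with a median of -0.0184. Mapk3, the kinase ERK1, had the smallest p there, with a difference of -0.31 and a 95% interval from -0.64 to 0.01.

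Of 20 genes known as estrogen targets in other tissues, 10 passed the filter on dim probes, 4 higher and 6 lower in HC6, with a median of -0.0572. Rara, a retinoic acid receptor, had levels of -1.16, -1.40, -1.45 and -1.59 in HC4 and of -1.88, -1.76, -1.61 and -2.01 in HC6. The groups did not overlap, though by a narrow gap, and the difference was -0.41 (limma, adjusted p = 1.00). Myc, the growth regulator, had levels of 0.65, 0.74, 0.32 and 0.76 in HC4 and of 0.94, 0.77, 0.82 and 0.79 in HC6, a difference of 0.21 with a 95% interval from -0.06 to 0.48. Of 17 immediate early and ERK feedback genes, 7 were higher and 10 lower. Dusp5, a nuclear phosphatase of ERK, had levels of -1.78, -1.65, -1.82 and -2.25 in HC4 and of -1.86, -0.86, -0.80 and -1.13 in HC6. HC6 replicate 1 lay among the HC4 pools and the other 3 above them, and the difference was 0.71 (limma, adjusted p = 1.00).

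The pathways of lineage choice and of cavity formation stayed near the median of all genes. For FGF ligands and receptors the median was -0.0647 (3 of 14 higher in HC6), for BMP and Nodal genes -0.0422 (7 of 18) and for WNT genes -0.0387 (5 of 17). Tcf7l1, a repressor of WNT targets, had levels of 0.24, 0.03, 0.16 and 0.18 in HC4 and of -0.18, -0.03, -0.31 and -0.39 in HC6, a difference of -0.38 without overlap (limma, adjusted p = 1.00). In the Hippo pathway, which separates trophectoderm from inner cells, 2 of 19 genes were higher and 17 lower, with a median of -0.079, and Lats2, one of its kinases, differed by -0.37 with a 95% interval from -0.76 to 0.01. Pumps, channels and junctions of the cavity had a median of -0.0321 and implantation receptors and proteases one of -0.0507. None of these lists held a gene with an adjusted p under 0.05.

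Stress and metabolic lists gave small medians as well. Cholesterol synthesis genes were higher in HC6 in 16 of 22 cases, with a median of 0.0246, and differences from -0.18 to 0.12. Heat shock chaperones had a median of -0.0482, genes of the unfolded protein response -0.091, p53 targets -0.102, glycolysis genes -0.0655 and oxidative phosphorylation genes -0.0509. In the antioxidant list the median was 0.0319. Txnip, the inhibitor of thioredoxin that responds to glucose, had levels of 2.45, 2.33, 2.27 and 2.52 in HC4 and of 2.70, 2.73, 2.44 and 2.58 in HC6, a difference of 0.22 (limma, adjusted p = 1.00). HC6 replicate 3 lay within the HC4 range. Genes of xenobiotic metabolism had a median of -0.00489 and cell cycle genes one of -0.0038. Among 14 genes of DNA methylation and demethylation, 10 were lower in HC6, with a median of -0.0658, and Dnmt1, the maintenance methyltransferase, differed by -0.23 with pools that did not overlap. The score of that list was 0.13, 0.06, 0.06 and -0.04 in HC4 and -0.06, -0.07, -0.04 and -0.05 in HC6. HC4 replicate 4 at -0.0355 lay barely above HC6 replicate 3 at -0.039, against an SD of 0.0694 within HC4. The groups thus did not overlap only by a gap far smaller than the spread between pools. Of 16 imprinted genes, 11 were higher in HC6, with a median of 0.0327, and Cdkn1c alone had an unadjusted p under 0.05. Peg10, a retrotransposon-derived gene of the placenta, had a difference of -0.54 without overlap and was well above background in 1 of 4 HC6 pools.

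**Figure D4:**
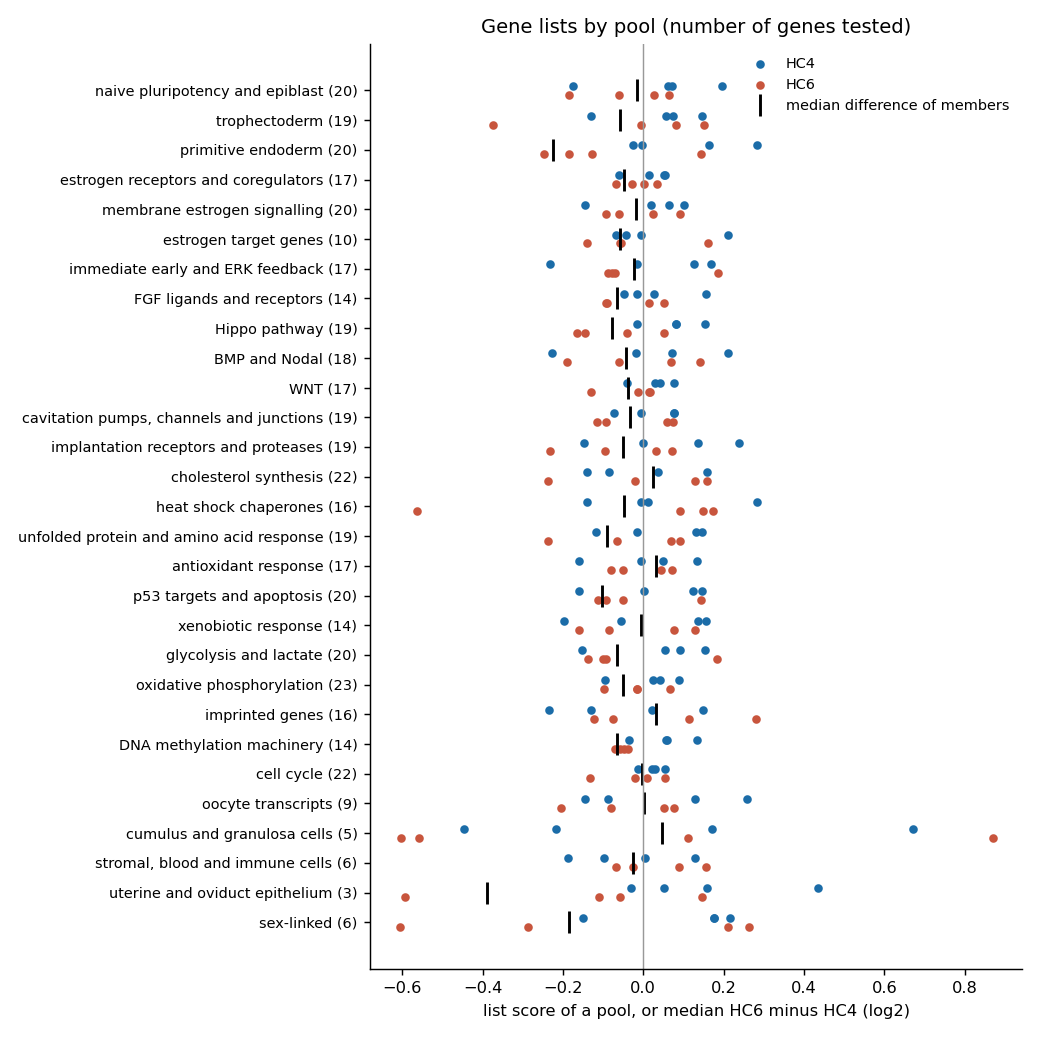
For 29 gene lists, points give the score of each pool, the mean log2 deviation of a list's genes from their mean over the 8 pools, and black ticks the median difference HC6 minus HC4 of the members. The ranges of HC4 and HC6 pools overlap in every list shown except DNA methylation machinery. There the lowest HC4 pool, at -0.0355, lies barely above the highest HC6 pool, at -0.039. The list of 2-cell stage genes is drawn on its own.

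Genes of the 2-cell stage had high levels in HC6 replicates 3 and 4 and in some pools of other conditions. These genes, switched on at zygotic genome activation and in rare cells of pluripotent cultures, include the Zscan4 cluster, the Usp17l family and Tcstv3. Of 20 listed, 10 were tested, 9 of them higher in HC6, 6 with an unadjusted p under 0.05 (0.913% of all genes) and 4 without overlap (0.56% of all genes), and 0 with an adjusted p under 0.05. Of these 10, Tdpoz1 was not well above background in any of the 8 pools, and 5 others (Zscan4a, Zscan4b, Zscan4f, Usp17lc and Usp17le) were so in 2 HC6 pools and no HC4 pool, so these counts rest in part on unmeasured levels. Each of those 5 was also well above background in 2 of the other 16 pools. They met the filter of 4 arrays only with the 2 HC6 pools, so the filter itself favoured a higher HC6 level. Their part of these counts is therefore no evidence of a difference. The measured median difference was 2.70, and 0.854 with those 5 taken against the HC4 floor. With no filter on dim probes 62.7% of all genes were higher in HC6, against 42% with it. Zscan4f, named here after its values were seen, had levels of -5.62, -5.42, -5.68 and -5.44 in HC4 and of -4.41, -4.98, 3.67 and -1.73 in HC6. HC6 replicate 3 was far above every other pool and HC6 replicate 4 next, and of the 8 pools only these 2 were well above background. The HC6 mean was 2.85-fold above the HC4 floor of -3.37 with replicate 3 included. Without that pool the HC6 mean of -3.71 lay below the floor, so no bound remained. Of the other 16 pools, 2 were well above background for it, the highest at -0.86. Tcstv3 had levels of -3.42, -3.48, -4.12 and -1.95 in HC4 and of -1.95, -3.54, 4.50 and 3.60 in HC6, with the same 2 pools high, and 8 of the other 16 pools were well above background, up to 2.01. The highest list score among those 16 was 1.95, above the 1.41 of HC6 replicate 4 and below the 4.06 of HC6 replicate 3. Usp17le had another order, with HC6 replicate 2 the highest at -0.63 and replicate 3 next at -2.36. Without HC6 replicate 3 the median difference of the list was 1.38. Members of these families are near-identical in sequence, so their probes can share signal and do not count as independent genes. Zfp352, a member of the list outside these families, differed by -0.00.

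**Figure D5:**
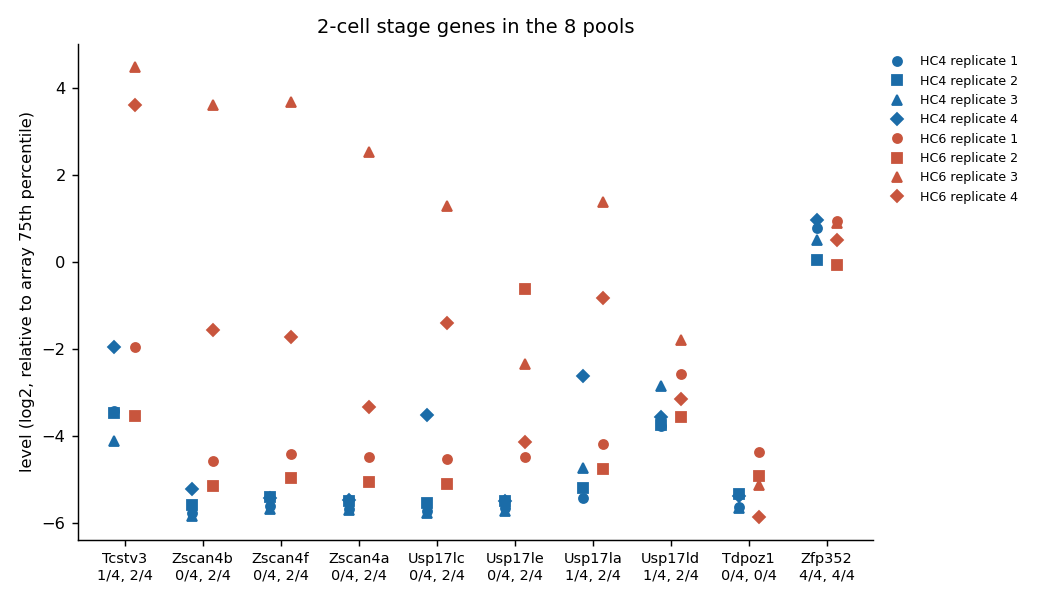
Levels (log2, relative to the array's 75th percentile) of the 10 tested 2-cell stage genes in each pool, blue for HC4 and red for HC6, with the number of arrays well above background in each condition under the gene's name. HC6 replicate 3 and then replicate 4 carry most of the signal, and Zfp352 is level in all 8 pools.

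Sex-linked genes, which read the share of male and female embryos in a pool, had overlapping pools in every case. Eif2s3y, which is Y-linked, had levels of 0.57, 1.28, 1.24 and 1.47 in HC4 and of 0.05, 0.01, 0.53 and 1.16 in HC6, a difference of -0.70 with a 95% interval from -1.45 to 0.04. HC6 replicates 1 and 2 were the lowest. Xist, the RNA of the inactive X chromosome, differed by 0.22, and the Y-linked genes Ddx3y, Uty and Kdm5d by -0.51, -0.40 and 0.03. Oocyte transcripts had a median difference of 0.00222 over 9 genes tested. Of the lists for other cell types, the stromal, blood and immune one had a median of -0.0255 over 6 genes tested, the uterine and oviduct one -0.39 over 3, and the cumulus and granulosa one 0.0467 over 5.

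Position on the slide was examined because 8 arrays share a slide in 2 rows. Row 1 held 3 HC4 and 2 HC6 pools, and row 2 held 1 HC4 and 2 HC6 pools, while the 3 slides held 1, 1 and 2 HC4 pools and 1, 2 and 1 HC6 pools. With condition in the model, 1852 of 18397 genes differed between the rows over all 24 arrays at an adjusted p under 0.05, against 0 between slides and 0 between columns. Of these 1852, 561 were higher and 1291 lower in row 2. Between HC4 and HC6 the 561 genes had a median difference of -0.035 and the 1291 genes one of 0.00194, or -0.197 and 0.0921 with row as a covariate. Of the 366 genes with an unadjusted p under 0.05 between the conditions, 13 were among the 1852, against 1852 among all 18397 genes. Such a p was found for 1.78% of the 561 genes and 0.232% of the 1291, against 1.99% of all genes. The main model holds no row term, so row differences enter its spread and make a small p rarer. This overlap is therefore no test of position. Of the 42 leading genes, 2 were among the 1852, Gng11 and Fads1. Gata3 and Kdm5d, named above, also were, at -0.30 and -0.64 for row 2 minus row 1 (limma, adjusted p = 0.0214 and 0.0266). With row as a covariate 0 genes had an adjusted p under 0.05 and 406 an unadjusted p under 0.05, of which 304 were among the 366.

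Within rows, the leading differences of Fam131a were -2.02 in row 1 and -1.67 in row 2, those of Foxa3 -0.84 and -1.79, and those of Strip2 0.90 and 0.49. Setmar differed by 3.98 in row 1 and 0.74 in row 2. Fads1 differed by 0.85 in row 1 and by 0.04 in row 2, and Gng11 by -1.16 and -1.26. Fam167b differed by -4.74 in row 1 and by 0.65 in row 2, where the single HC4 pool is the one with the low level. The median of the primitive endoderm list was -0.261 in row 1 and -0.121 in row 2, and that of the 2-cell stage list 2.27 and 1.99. Within slides 1, 2 and 3, Fam131a differed by -1.18, -2.48 and -1.36 and Foxa3 by -1.84, -1.28 and -0.69. The 42 leading genes were chosen by their p in these same pools, which favours keeping the sign within parts of them. The counts that follow are therefore no test of position. Of these 42, 40, 41 and 40 kept the sign of their difference within slides 1, 2 and 3. The exceptions were Gng11 (0.01) and Kansl1 (-0.08) in slide 1, Nod1 (-0.33) in slide 2, and Ctrcos (-0.49) and Gpihbp1 (-0.13) in slide 3. Each row 2 and slide value rests on 1 or 2 pools a condition.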

How the data were processed

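Total RNA of 24 pools was labelled with Cy3 and hybridised to one array each, per the labels' protocols. The deposited scanner files hold linear intensity values. Per the file headers they come from Agilent Feature Extraction (version 10.10.1.1), which subtracted background, put a surrogate in place of low values and did not normalize between arrays. The authors' deposited table of log2 values served as an alternative; it was put on a common scale between arrays (column medians 7.00 to 7.01), and how is not given in the sources used here. No spot was saturated on any array.

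Control and outlier spots were left out, spots of a probe averaged in log2, and each array's 75th percentile subtracted. Probes needed 4 or more of 24 arrays well above background and at least 2 values per condition, and the brightest kept probe stood for its gene. As 77 genes lack a value of HC4 or HC6, those fits use the remaining pools. Array names of 41700 of 56605 probes were current symbols, 1518 were updated by accession and 520 by synonym.

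One model with 6 condition means over all 24 arrays was fitted in limma 3.58.1 (R 4.3.3) with eBayes, two-sided, with Benjamini-Hochberg adjustment. Levels are mean ± SD of 4 pools and differences are HC6 minus HC4. The number of arrays limits the precision. On simulated arrays with 200 changed genes, 7 unchanged genes of 18142 were called, and 0 with none changed. Figures were drawn with matplotlib 3.10.9 in Python 3.11.15.

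Named are the 15 genes of smallest p in each direction measured in both conditions (3 or more of 4 arrays well above background), the 6 in each direction measured in one and on at most 1 array of the other, up to 4 members of a described list, and lineage, estrogen receptor and sex-linked genes. Features without a symbol and near-identical families were left unnamed, except 2-cell stage genes, which were picked for naming with their values in view, Zfp352 included. The leading genes were chosen by their p, so their values are descriptions. The comparison and the 30 gene lists were chosen with earlier results of these data known.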

Additional observations from a re-analysis of the deposited data

Results flagged for a closer look

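In 11 of 180 groups of 4 pools (6.11%), 1 pool lay far from the other 3 by Dixon's criterion, which marks about 1 in 20 groups by chance. In HC4 these were replicate 2 for Ankrd12 at -1.16 and for Rsf1 at 1.56, and replicate 4 for Ankrd52 at -1.73. In HC6 they were replicate 1 for Gng11 at -3.10 and for Pdgfra at 1.57, and replicate 2 for Mmp15 at -3.39. Among list scores, HC6 replicate 1 stood apart for heat shock chaperones at -0.56 and for glycolysis genes at 0.18, and HC6 replicate 3 for immediate early and ERK feedback genes at 0.19. HC4 replicate 4 stood apart for 2-cell stage genes at -0.57, above the other HC4 pools, and HC4 replicate 1 for sex-linked genes at -0.15.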

How the results depend on the processing

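The number of genes with an adjusted p under 0.05 was 0 in the main analysis and 0 under every alternative run except these: it was 1 with array weights (Fam131a, adjusted p = 0.0212), 6 within slide row 2 (1 HC4 against 2 HC6 arrays, the lone pool assumed to vary like the other groups), and between 0 and 1 when one replicate was left out, the 1 being Fam131a without HC6 replicate 4 (adjusted p = 0.0434) and Fam167b without HC4 replicate 4 (adjusted p = 0.00545). HC4 replicate 4 is the HC4 pool with the low level of Fam167b, so the value without it is no evidence of a difference. Over 32 settings the adjusted p of Fam131a ran from 0.0212 to 1. Genes with an unadjusted p under 0.05 numbered 1834 with no filter on dim probes, where 62.7% of genes were higher in HC6, 205 with only genes well above background on all 8 arrays, 856 with array weights, 590 within slide row 1, and between 277 and 660 with one replicate left out, 660 without HC6 replicate 1; apart from the number of genes tested, the cause was not tested. Of the leading genes, Pex3 changed sign with the mean of a gene's probes, to -0.00937, and Fam167b within slide row 2, to 0.65. Equal replicate numbers did not pair the pools (correlations of same-numbered deviations -0.178, 0.217, 0.121 and -0.344), and the replicate block gave 0 genes with an adjusted p under 0.05 and 400 with an unadjusted one, or 462 with slide row as well. Slide row as a random block was chosen after seeing the data (0 and 396 genes), as was leaving out HC6 replicate 3 with row as a covariate. Within slides values were taken without a test, and Gng11, Kansl1, Nod1, Ctrcos and Gpihbp1 changed sign in 1 slide each. The median of the primitive endoderm list stayed below 0 in all 35 settings, from -0.096 to -0.297. So did those of the unfolded protein response, DNA methylation and sex-linked lists. The settings reuse the same 8 pools, and the median of all genes was below 0 in most of them, so this steadiness is no separate evidence. Signal over background limits what genes not measured on all 8 arrays can show.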
